A study of Mus musculus with 54 samples.

Results

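The 200 array features with the lowest ratios of mouse aorta RNA to mouse embryo RNA are described here, out of 21446 features in the deposited table. Of 20694 features measured on all 54 arrays, 6938 were repeats, meaning features whose 54 values lay within a root mean square distance of 0.06 of at least 50 other features. These were set aside, and the 200 with the lowest mean over the 54 arrays were taken from the 13756 that were left. The members were therefore chosen by their level, and their low mean is a description and not a finding. Features are given by their number in the table, because the platform's gene names were not borne out by the values: 913 pairs of features that share 1 gene symbol had mean ratios that correlated at -0.0018. For the same reason the labelled tissue could not be checked against marker genes, no role can be given to any member, and no sequence is shown.

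Aortas came from C57Bl/6 mice (C57) and C3H/HeJ mice (C3H). Each strain had 5 groups on normal chow (weeks 0, 4, 8, 24 and 40) and 4 groups on a high-fat diet (weeks 4, 8, 24 and 40), with week 0 as the baseline before the diet. Each of the 18 groups had 3 arrays, numbered 1 to 3 in the titles. Not given in the sources used here were the age and sex of the mice, the composition of the diet and whether an array held 1 aorta or a pool. The p-values below therefore cover array-to-array spread, part or all of which may be technical. The other channel of every array held total RNA of mouse embryos at day 17.5.

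On a 2-colour array both RNAs compete for the same spot, and a reference shared by all arrays lets groups be compared through their ratios to it. A late embryo is a mixture of many organs, among them liver, brain, bone and muscle, most of them still growing, whereas the aorta is mainly smooth muscle, endothelium and connective tissue. C57Bl/6 mice are known for fatty lesions of the aorta on an atherogenic diet, and C3H/HeJ mice for resistance to them. In whole tissue, fewer cells of a type and less RNA per cell cannot be told apart.

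Values are deposited log ratios with the sign of the deposited table. They stop at exactly -2 and 2, which makes log10 the likely base, but base and direction were not stated with the values. All signs below would turn if the deposited ratio had the embryo on top. "Higher" means a less negative ratio here, since nearly all values of the members lie below 0.

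The members' means ran from -1.95 to -0.842, with a median of -0.902. If the base is 10, these are 6.95 to 89.9 times less signal in one RNA than in the other, with a median of 7.97. The rule ended within a dense range of means. Just inside lay features 5723 (-0.843), 5331 (-0.842) and 17874 (-0.842), and just outside lay 5375 (-0.842), 5295 (-0.842) and 9904 (-0.841). Of the 200 members, 145 were below 0 on every array.

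Feature 1672 had the lowest mean, -1.95, and 36 of its 54 values stood at the lower limit of the table. Its mean is therefore a bound, and its highest value on any array was -1.65. Feature 19124 followed with a mean of -1.76 and 7 values at the limit. Its median was -1.84, yet C3H high-fat array 2 of week 24 stood at -0.49, against -1.84 and -1.57 on the other arrays of its group. Features 6333 (-1.67), 6729 (-1.63) and 8717 (-1.63) came next. In all, 44 of the 45 values at -2 in the whole table lay in 3 members, so the lower limit of the scale touched these 3 and almost nothing else.

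The members were not 200 separate profiles. Members that correlated at 0.85 or more with 1 lead member were put together, and this was done after the values had been seen, so the resulting sets are described and not tested. A first set of 51, called shared profile 1, followed feature 5009. A second set of 38, called shared profile 2, followed feature 63. A further set among the other 111 members was not looked for. The median pairwise correlation over the 54 arrays was 0.909 within profile 1, 0.900 within profile 2 and 0.352 among the other members. These arrays share the embryo reference and their own spread, so such values say only how alike the profiles are.

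The numbers of profile 1 and profile 2 were not spread evenly over the table. In profile 1, 50 of 51 members were numbered between 4763 and 5803, all of them odd, and 31 of the 49 gaps between neighbours were multiples of 4. Gaps between odd numbers are always even, so multiples of 4 are common among them without any regular spacing. The remaining member was feature 4260, whose mean of -1.38 was the lowest of the set. In that stretch of 983 measured features, 209 followed the lead at 0.85 or more. The stretch also held 5 of the other 111 members (4.5%), close to its share of all measured features (4.75%). In profile 2, 35 of 37 gaps were multiples of 7, and 24 of 38 members were numbered from 21 to 196. The rest lay far from these, at 6109 and 6158, between 12071 and 12253, and at 17874 and 17881. The 2 closest pairs of all members both lay between 21 and 196: features 168 and 161 differed by a root mean square of 0.038, and features 189 and 182 by 0.0385. The platform annotation lists 1 of the 51 members of profile 1 and 0 of the 38 of profile 2, against 94 (84.7%) of the other 111 and 80.6% of all features.

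**Figure D1:**
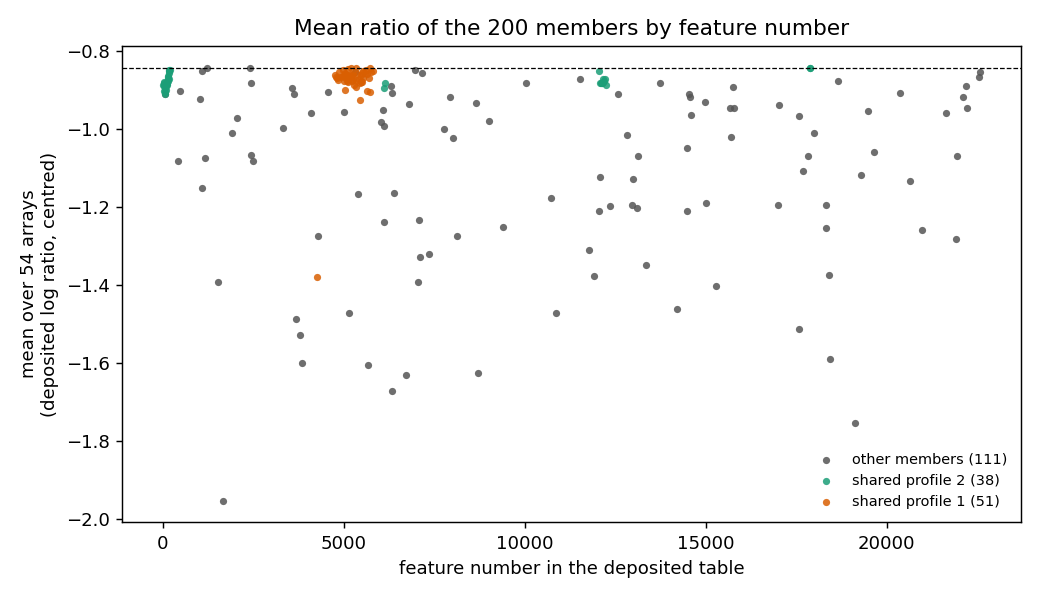
Each point is 1 of the 200 members, at its feature number (x axis) and its mean deposited log ratio over 54 arrays (y axis); the dashed line is the highest mean among the members. Profile 1 (51 members) is packed between numbers 4763 and 5803 apart from feature 4260, profile 2 (38 members) sits mostly below number 200, and the other 111 members are spread over the whole range and hold all means below -1.38.

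Profile 2 also continued outside the members. Of 225 features that followed feature 63 at 0.85 or more, 147 had been set aside as repeats and 40 were ranked above the threshold. Those 147 repeats had means from -0.90 to -0.70, and their average profile correlated with that of profile 2 at 0.976. Profile 1 had no such repeats, but 163 features that followed its lead had means too high to be members, up to -0.629. For both sets the threshold therefore runs through a larger group of features. With repeats kept, only 137 of the 200 members would have been chosen, and 63 repeats would have taken the other places.

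The 2 profiles differed in how much they moved between arrays. The SD over the 54 arrays had a median of 0.362 in profile 1, 0.194 in profile 2 and 0.176 among the other members, against 0.0878 over all features measured on every array. Features 5299 (SD 0.410) and 5723 (SD 0.406), both of profile 1, varied most, and features 14557 (SD 0.0843) and 1672 (SD 0.0867) least, the latter at the limit of the scale. Feature 14557 stayed between -1.06 and -0.74 on all arrays. Within groups of 3 arrays, the residual SD of a member had a median of 0.213, against 0.0872 over all features, so a difference had to be larger in a member to pass the same test.

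Profile 1 illustrates this spread. Feature 5299 stood at 0.05, -1.21 and -1.39 on the 3 arrays of C57 chow week 40, and at -0.80, 0.06 and -1.04 on those of C3H high-fat week 40. Single arrays of this feature, the most variable member, thus reached the level of the reference while their neighbours in the same group stayed far below it. On array 2 of C3H high-fat week 40 the median of profile 1 was -0.647, so feature 5299 stood above its set there. Only 1 of the 51 members of profile 1 was below 0 on all arrays, against 37 of 38 in profile 2 and 107 of 111 of the others.

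The arrays that stood high in profile 1 were partly those with a small spread overall. On 5 arrays the SD over all features that are not members was 0.145 to 0.187, against 0.213 to 0.287 on the other 49. These were array 3 of C57 chow week 4, array 2 of C57 chow week 8, array 3 of C57 chow week 24, array 1 of C57 chow week 40 and array 2 of C3H high-fat week 4. On these 5 arrays the median of profile 1 was -0.43 to 0.041, that of profile 2 -0.65 to -0.38 and that of the other members -1.03 to -0.81. On the other 49 arrays the medians were -1.52 to -0.14, -1.28 to -0.61 and -1.32 to -0.93. Profile 1 was thus not low on every array of ordinary spread, and array 1 of C57 high-fat week 40 was the highest of them. On array 1 of C57 chow week 40, 149 of the 200 members were below 0. Results below are given without these 5 arrays where that ends a call or changes a count by more than 1.5 times; the part of array spread in the results was not tested further.

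**Figure D2:**
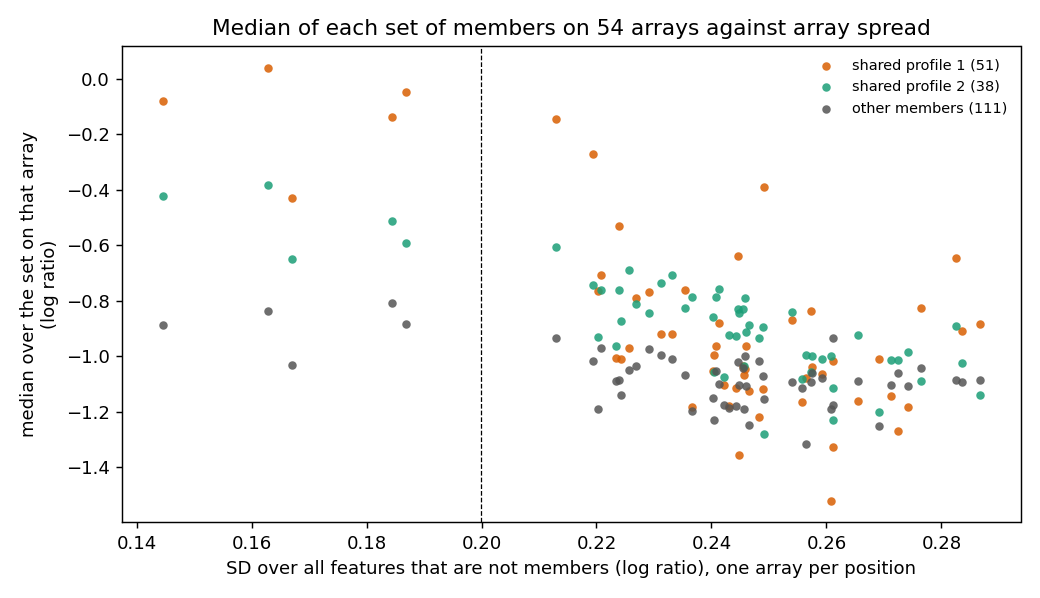
Each of the 54 arrays is drawn as 3 points at the SD over all features that are not members (x axis, log ratio), showing the median log ratio of profile 1, profile 2 and the other members on that array (y axis). The 5 arrays left of the dashed line have SDs of 0.145 to 0.187; there profile 1 lies between -0.43 and 0.041, while the other members lie between -1.03 and -0.81.

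The other 111 members lay lower on average, with a median mean of -1.06, against -0.865 in profile 1 and -0.881 in profile 2. Within each array's own ranking of features, 85 to 159 of the 200 members were among the lowest 200, with a median of 126.5. Just 14 members were there on all 54 arrays, all of them among these 111. The rule chose members by their mean, so this follows in part from the lower means of the 111. On a single array, 28 to 107 of the 111 were among the lowest 200. Chosen from the 27 C57 arrays alone, the lowest 200 would have shared 165 features with the members, and from the 27 C3H arrays alone 177. Each set of 27 arrays was part of the 54 that chose the members, so overlap was built in. As a share of the variance over arrays, the week took a median of 8.05% in these 111, the strain 1.84% and the diet 0.86%, against 4.75%, 2.67% and 0.847% over all features. The array number took 14.3%, against 24.1% over all features. A factor with more levels takes a larger share even where it has no effect. The shares of different factors therefore cannot be ranked against one another. Arrays numbered 3 had a median level of -1.18 in these members, compared with -1.06 and -1.05 on arrays numbered 1 and 2.

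Change over time on chow was asked first, as the difference between week 40 and week 0, from limma (linear models with a shared estimate of the spread) fitted to group means of all 54 arrays, with p-values adjusted by Benjamini-Hochberg over the 21179 features tested. Averaged over both strains, 4 members fell and 0 rose. That is 2.0% of members, against 0.231% of all features tested that changed and 0.184% that fell. All 4 belong to the 111 other members: features 1087, 15762, 3644 and 6125, the last of which is outside the rule for named features and is given to complete the count.

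Feature 1087 stood at -0.90, -0.80 and -0.71 on the 3 arrays of C57 week 0 and at -0.71, -0.85 and -0.74 on those of C3H week 0. At week 40 on chow it stood at -1.35, -1.43 and -1.18 in C57 and at -1.36, -1.26 and -1.22 in C3H. The week 0 and week 40 arrays did not overlap in either strain. The difference over both strains was -0.516 ± 0.058 (SE; limma adjusted p = 2.3e-07), and if the base is 10 this is 3.28-fold.

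Feature 15762 gave the same order of groups. At week 0 its arrays read -0.50, -0.52 and -0.58 in C57 and -0.35, -0.62 and -0.58 in C3H, and at week 40 on chow -0.99, -1.14 and -1.10 in C57 and -0.89, -1.0 and -1.12 in C3H. Again no array of week 40 reached an array of week 0. The difference was -0.517 ± 0.064 (SE; limma adjusted p = 1.9e-06).

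Feature 3644 fell by 0.362 ± 0.044 (SE; limma adjusted p = 1.6e-06). It went from -0.68, -0.63 and -0.71 at week 0 to -0.88, -1.14 and -1.04 at week 40 in C57, and from -0.55, -0.73 and -0.67 to -0.99, -1.02 and -1.07 in C3H. Feature 6125 fell by 0.338 ± 0.053 (SE; limma adjusted p = 0.00017), from 6 arrays between -0.87 and -0.61 to 6 arrays between -1.24 and -0.996. Groups did not overlap for either feature. The call of feature 6125 was lost when all arrays were scaled to one spread (adjusted p = 0.0834) and under quantile normalization (adjusted p = 0.119), while features 1087, 15762 and 3644 were called under all 64 alternatives. Scaling to one spread still called 4 members as falling, so another member was called there.

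Most of the difference was present by week 4. At week 4 on chow the 6 arrays of both strains ran from -1.17 to -1.11 for feature 1087, from -1.01 to -0.79 for feature 15762, from -0.997 to -0.86 for feature 3644 and from -1.09 to -0.94 for feature 6125. None of these arrays was as high as the lowest array of week 0, and the same held for weeks 8, 24 and 40 on chow. Between week 0 and week 4 on chow 3 members fell and 0 rose, which is 1.5% of members, against 0.0614% of all features that changed and 0.0472% that fell. Feature 1087 fell by 0.359 ± 0.058 (SE; limma adjusted p = 0.0011). Feature 15762 fell by 0.345 ± 0.064 (SE; adjusted p = 0.0076) and feature 3644 by 0.254 ± 0.044 (SE; adjusted p = 0.0031), both from the same limma fit. After scaling to one spread all 3 calls were lost (adjusted p = 0.165, 0.103 and 0.0868). Quantile normalization left only feature 15762 called (0.012), and fitting only the arrays of the contrast left only feature 1087 (0.014). An F test of any change over the 5 chow weeks called 4 members, the same ones as between weeks 0 and 40, and 0.26% of all features.

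On the high-fat diet the mean of the 6 week 4 arrays lay between the chow means of week 0 and week 4 for each of these 4 members, while single arrays overlapped both. Feature 1087 had values of -1.12, -1.11 and -0.99 in C57 and -0.89, -0.81 and -1.02 in C3H at week 4. In C3H it was at -1.39, -1.38 and -1.30 by week 8, below all 3 arrays of week 4. For feature 3644 the C3H high-fat arrays went from -0.77, -0.57 and -0.93 at week 4 to -1.07, -1.09 and -0.89 at week 8, with 1 array overlapping. Over all later weeks and both diets, 2 of 48 arrays of feature 1087 lay above its lowest week 0 array, both of them C3H high-fat week 4. For feature 15762 and feature 3644 it was 1 of 48, likewise from C3H high-fat week 4, and for feature 6125 it was 6 of 48, of which 5 were from high-fat week 4 and 0 from chow. The higher C3H values at week 4 were not a called diet difference: 0 members were called there and 0.0% of all features, with 10 members at an unadjusted p under 0.05. Of the 3 C3H high-fat arrays of week 4, array 2 is also among the 5 of small spread.

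**Figure D3:**
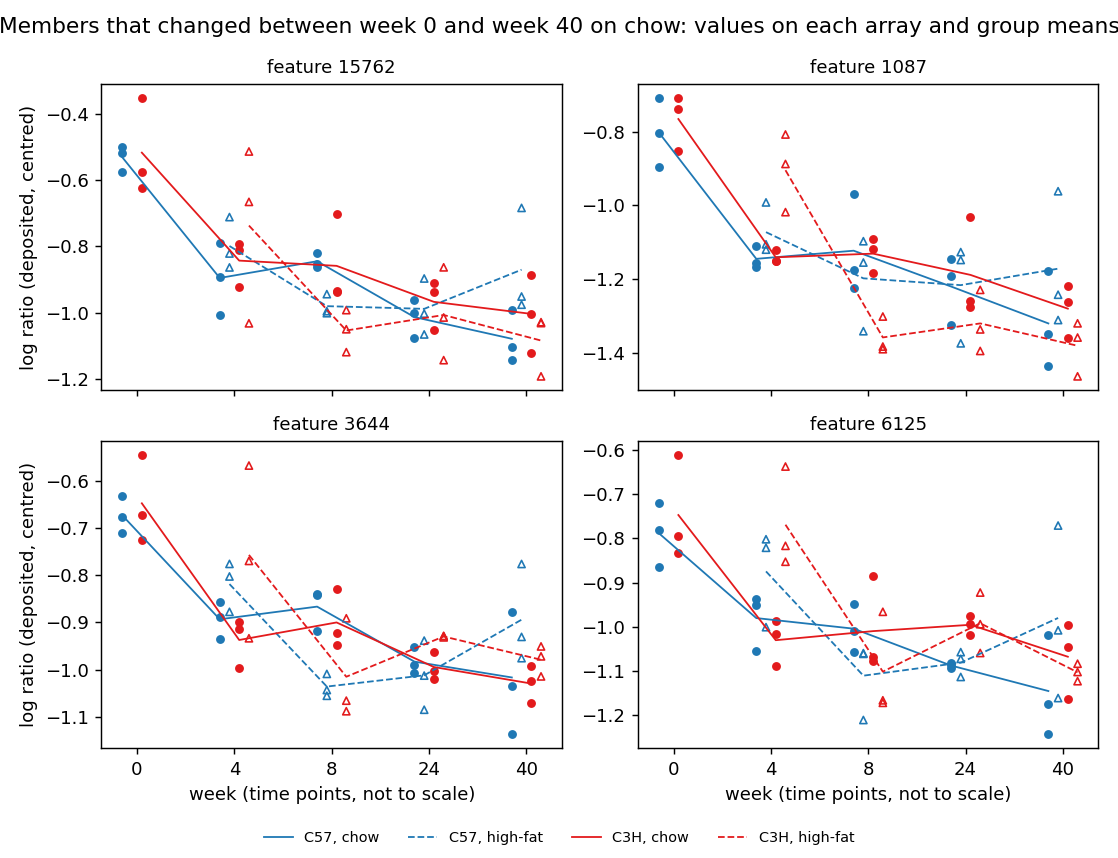
Log ratios of features 15762, 1087, 3644 and 6125 (4 panels, y axes differ) by week (x axis, equally spaced time points). Points are single arrays, filled for chow and open for high-fat diet, and lines join group means of 3 arrays for C57 (blue) and C3H (red). All 6 arrays of week 0 lie above all 24 chow arrays of later weeks in each panel, and the C3H high-fat arrays of week 4 lie partly within the week 0 range.

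In C57 alone 4 members fell, which is 2.0% of members against 0.0614% of all features. The differences were -0.518 for feature 1087, -0.547 for feature 15762, -0.343 for feature 3644 and -0.357 for feature 6125. In C3H alone 3 members fell, 1.5% of members against 0.0992% of all features that changed and 0.0755% that fell. Here the differences were -0.514 for feature 1087, -0.487 for feature 15762 and -0.381 for feature 3644. The value of feature 6125 in C3H was -0.320 with a limma adjusted p of 0.077. The interaction of this change with strain called 0 members and 0.0% of all features, with 10 members at an unadjusted p under 0.05, and for feature 1087 it was -0.003 ± 0.116 (SE). These calls within 1 strain rested on the setting. After scaling to one spread, limma called 0 members in each strain, and when only the arrays of the contrast were fitted it also called 0. With same-numbered arrays of a strain and diet as a random block, it called 5 in C57 and 10 in C3H. Without the 5 arrays of small spread it called 5 in C3H.

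The 4 falling members also resembled one another over the whole set of arrays. Their pairwise correlations over 54 arrays were 0.750 to 0.913, the highest between features 3644 and 6125, and the feature most like 1087, among all that were ranked, was 3644. The 54 arrays share the reference and the fall itself, so these correlations are a description only.

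Over the high-fat weeks, from week 4 to week 40, limma called 2 members over both strains, 1.0% of members against 0.0992% of all features (0.0803% that rose and 0.0189% that fell). Feature 7103 rose by 0.575 ± 0.117 (SE). Feature 1087 fell by 0.288 ± 0.058 (SE), and the limma adjusted p was 0.025 for each. For feature 7103 the C57 arrays went from -1.34, -1.29 and -1.61 at week 4 to -0.46, -0.59 and -0.80 at week 40, with no overlap, and the C3H arrays from -1.42, -1.43 and -1.50 to -0.90, -1.20 and -1.20, also with no overlap. Over the same weeks on chow its 6 arrays of both strains ran from -1.87 to -1.31 at week 4 and from -1.86 to -0.99 at week 40, which overlap. Their means were -1.60 and -1.37, and this chow difference was not tested. Both calls were lost without the 5 arrays of small spread (adjusted p = 0.0937 and 0.126), with differences of 0.579 and -0.263, and after scaling to one spread (0.126 and 1.0).

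Within C57 over the high-fat weeks, 2 members rose, 1.0% of members against 0.132% of all features that changed and 0.118% that rose. The change was 0.800 ± 0.165 for feature 7103 (SE; limma adjusted p = 0.025) and 0.550 ± 0.116 for feature 1021 (SE; limma adjusted p = 0.031). The C57 arrays of feature 1021 moved from -1.08, -1.07 and -1.37 at week 4 and -1.18, -1.18 and -1.43 at week 8 to -0.58, -0.82 and -0.93 at week 24 and -0.46, -0.62 and -0.79 at week 40. Weeks 4 and 8 lay below weeks 24 and 40 with no overlap. Both calls were lost after scaling to one spread (adjusted p = 0.171 for feature 7103 and 0.166 for feature 1021) and in a fit restricted to the arrays compared, and that of feature 1021 under quantile normalization (0.138). Features 1021 and 7103 correlated at 0.657 over the 54 arrays. In C3H over the high-fat weeks, 1 member changed, 0.5% of members against 0.0803% of all features, with 0.00472% falling: feature 1087 fell by 0.476 ± 0.082 (SE; limma adjusted p = 0.0066). This call was lost without the 5 arrays of small spread (adjusted p = 0.141), after scaling to one spread (1.0), under quantile normalization (0.614) and in a fit restricted to the C3H high-fat arrays compared (1.0).

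Diet was compared as high-fat minus chow over weeks 4 to 40. In C3H 3 members rose and 0 fell, which is 1.5% of members, against 0.529% of all features that changed and 0.467% that rose. In C57 limma called 0 members, against 0.0472% of all features, with 14 members at an unadjusted p under 0.05. Over both strains 1 member rose, feature 6324, which is 0.5% of members against 0.156% of all features that changed and 0.0992% that rose. All calls for diet, here and at single weeks, were lost with same-numbered arrays of a strain and diet as a random block. The p-values for diet below treat these arrays as independent.

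Feature 6324 had the largest diet difference of the members. On chow its 12 C3H arrays of weeks 4 to 40 ran from -1.43 to -0.88 with a median of -1.08, and on the high-fat diet the 12 arrays ran from -0.95 to -0.017 with a median of -0.62. Of these, 11 of 12 lay above every chow array. The C3H difference was 0.550 ± 0.081 (SE; limma adjusted p = 0.00021), which is 3.55-fold if the base is 10, and the group mean was higher on the high-fat diet at 4 of 4 weeks. In C57 the same difference was 0.038 ± 0.081 (SE; limma adjusted p = 1.0), with the high-fat mean higher at 2 of 4 weeks. The difference between the strains, -0.512 ± 0.115 (SE), had an unadjusted p of 6.4e-05 and a limma adjusted p of 0.117 and was not called.

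At week 40 alone, C3H high-fat arrays of feature 6324 stood at -0.074, -0.017 and -0.40, and C3H chow arrays at -1.15, -0.88 and -1.08. The groups lay far apart, and the difference of 0.872 ± 0.162 (SE; limma adjusted p = 0.0097) was the only one of a single week called among the members in either strain, 0.5% of members against 0.142% of all features that changed and 0.137% that rose. In C57 at week 40 the high-fat arrays stood at -0.42, -0.43 and -1.27 and the chow arrays at -0.63, -0.82 and -1.13. There 2 high-fat arrays were above all chow arrays and 1 was below them. In single weeks of C57 limma called 0 members, against 0.0236%, 0.0%, 0.00472% and 0.0142% of all features at weeks 4, 8, 24 and 40, with 2 to 10 members at an unadjusted p under 0.05. In C3H it called 0 members at weeks 8 and 24, against 0.0236% and 0.0142% of all features, with 10 and 5 members at an unadjusted p under 0.05.

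Features 7103 and 1021 were the other members that rose with diet in C3H. For feature 7103 the rise was 0.350 ± 0.082 (SE; limma adjusted p = 0.037), and 6 of 12 high-fat arrays lay above all chow arrays. For feature 1021 it was 0.253 ± 0.058 (SE; limma adjusted p = 0.034), again with 6 of 12 above all chow arrays. Both had a higher high-fat mean at 4 of 4 weeks. Both calls were lost after scaling to one spread (adjusted p = 0.253 and 0.207) and, for feature 7103, without the 5 arrays of small spread (adjusted p = 0.0554). In C57 the differences of these features were 0.148 ± 0.082 and 0.054 ± 0.058 (SE), neither of them called.

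**Figure D4:**
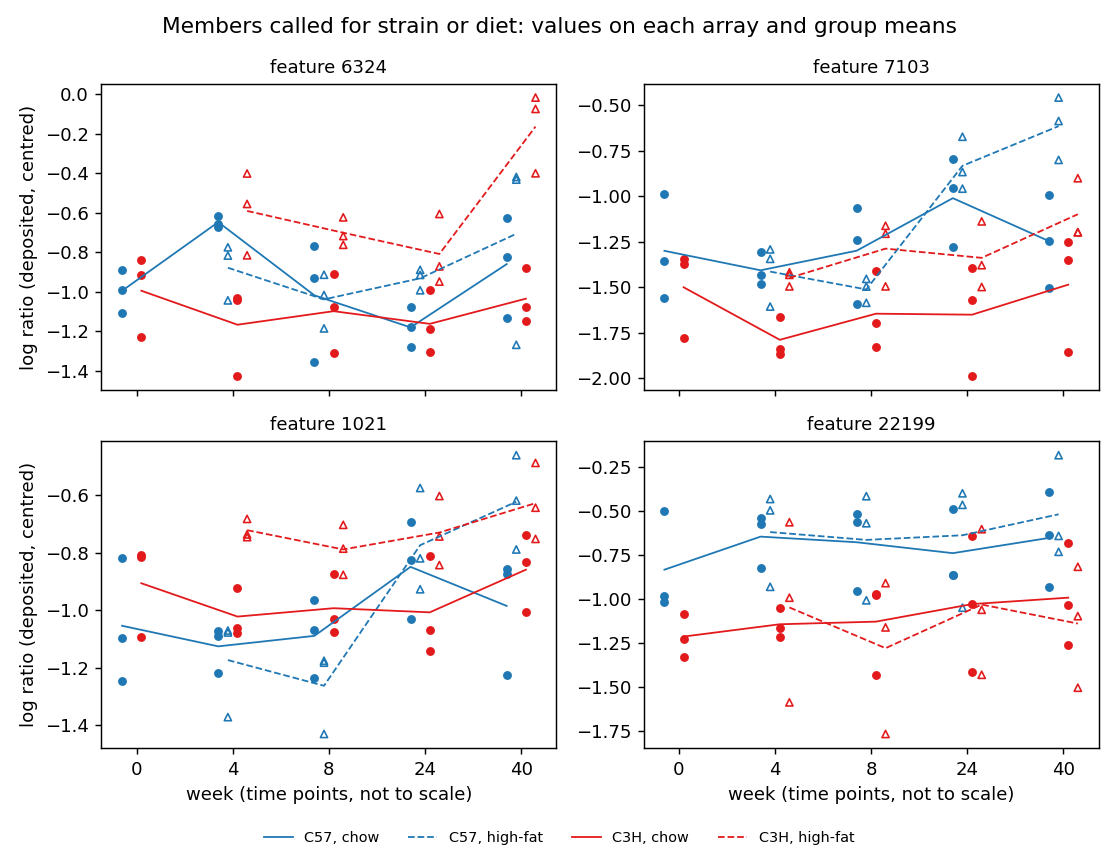
Log ratios of features 6324, 7103, 1021 and 22199 (4 panels, y axes differ) by week (x axis, equally spaced time points), with single arrays as points (filled for chow, open for high-fat) and group means of 3 arrays as lines for C57 (blue) and C3H (red). Feature 6324 on high-fat C3H reaches -0.074, -0.017 and -0.40 at week 40, feature 7103 climbs on the high-fat diet, and the C57 means of feature 22199 lie above the C3H means at every week of each diet.

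The strains were compared at week 0, over the 5 chow weeks and over the 4 high-fat weeks, as C57 minus C3H. At week 0 limma called 0 members, against 0.534% of all features, with 4 members at an unadjusted p under 0.05. Over the chow weeks 6 members were called, all of them higher in C57, which is 3.0% of members against 6.96% of all features that differed and 3.88% that were higher in C57. Over the high-fat weeks 9 were called, 3 higher and 6 lower in C57, which is 4.5% of members against 11.0% of all features (4.72% higher and 6.31% lower). In this fit the share of members was below that of all features on each diet. On the high-fat diet the order was the reverse without the 5 arrays of small spread (15.5% against 12.9%) and under quantile normalization (15.5% against 11.0%). Features 22199, 6041 and 2441 were called on both diets, with the same sign. All calls for strain on either diet were likewise lost with same-numbered arrays of a strain and diet as a random block.

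Feature 22199 had the largest strain difference of the members. Its 15 C57 chow arrays ran from -1.02 to -0.39 with a median of -0.64, and the 15 C3H chow arrays from -1.43 to -0.64 with a median of -1.09. The difference was 0.392 ± 0.109 on chow and 0.515 ± 0.122 on the high-fat diet (SE; limma adjusted p = 0.018 and 0.0035). C57 was higher at all 5 chow weeks and all 4 high-fat weeks, yet 8 of 15 and 6 of 12 C57 arrays lay above every C3H array, so the strains overlapped. On chow the call was lost without the 5 arrays of small spread (adjusted p = 0.066) with a difference of 0.359.

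Feature 7103 was 0.362 ± 0.074 higher in C57 on chow (SE; limma adjusted p = 0.00066), with 7 of 15 C57 arrays above every C3H array, a call lost after scaling to one spread (adjusted p = 0.316). On the high-fat diet its difference was 0.20 ± 0.082 (SE; limma adjusted p = 0.117). Feature 20382 was 0.243 ± 0.065 higher in C57 on chow (SE; limma adjusted p = 0.013), with 10 of 15 C57 arrays above every C3H array, a call lost without the 5 arrays of small spread (adjusted p = 0.0754). On the high-fat diet features 6041 and 2441 were higher in C57 by 0.169 ± 0.048 and 0.142 ± 0.045 (SE; limma adjusted p = 0.015 and 0.032). The direction on chow varied with the setting: 3 members were called after scaling to one spread (1 higher and 2 lower in C57), 3 without the 5 arrays of small spread (2 higher and 1 lower) and 4 under quantile normalization (all higher).

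Of the 6 members lower in C57 on the high-fat diet, the 3 with the largest differences were feature 1917 (-0.365 ± 0.116), feature 6324 (-0.323 ± 0.081) and feature 22561 (-0.300 ± 0.091). These are ± SE, with limma adjusted p of 0.033, 0.0059 and 0.026. For feature 6324, 12 C57 high-fat arrays ran from -1.27 to -0.42 and 12 C3H high-fat arrays from -0.95 to -0.017. Only 5 of the 12 C57 arrays were below all C3H arrays. Feature 6324 on chow had a difference of 0.151 ± 0.072 (SE), with the opposite sign and not called.

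Feature 1917 shows how much of a level went with the array number. On the C57 high-fat diet the arrays numbered 1 stood at -1.33, -1.32, -1.41 and -1.21 over weeks 4, 8, 24 and 40. The arrays numbered 2 stood at -0.80, -0.80, -0.90 and -0.94, and those numbered 3 at -1.51, -1.58, -1.68 and -1.61. Each number kept its own level through all 4 weeks, and the 3 numbers did not overlap. On C3H high-fat the order was another: arrays numbered 3 were highest at every week, from -0.75 to -0.54, and arrays numbered 2 reached -1.31. Feature 22199 was alike, with C3H high-fat arrays numbered 3 lowest at each week, at -1.59, -1.77, -1.43 and -1.51.

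The numbers did not keep their levels everywhere: on C57 chow, feature 1917 stood at -0.83, -0.39, -0.86, -0.62 and -1.11 on arrays numbered 3 over the 5 weeks and at -0.97, -1.06, -1.25, -1.10 and -0.60 on arrays numbered 1, which cross. What a number marks was not stated. The arrays of one strain, diet and number are called a series here. With these series as a random block, the estimated correlation within a series was 0.461. In that limma fit 0 members were called for strain on either diet, for diet in either strain or over both, or for feature 6324 at C3H week 40 (adjusted p = 0.0826). The lowest adjusted p for strain among the members named was 0.0607, for feature 22199 on the high-fat diet. Differences over time compare arrays within a series, and there 10 members were called on chow over both strains and 13 on the high-fat diet. These are 5.0% and 6.5% of members, against 1.26% and 1.25% of all features. Without the block these shares of all features were 0.231% and 0.0992%.

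Profile 1 and profile 2 held 0 of the called members in all these comparisons, though the medians of profile 1 lay away from 0. As a median over its 51 members, high-fat minus chow was -0.247 in C57 and 0.193 in C3H, and C57 minus C3H was 0.131 on chow and -0.231 on the high-fat diet. Over all features these medians were 0.002, 0.001, -0.005 and -0.004. The median of every array was set to 0, and the deposited array medians already lay between -0.012 and 0.012. The medians over all features are therefore no measure of spread. The residual SD within groups had a median of 0.384 in profile 1. For diet by strain, 50 members (25%) had an unadjusted p under 0.05, against 8.38% of all features. This count was 33 (16.5% against 8.61%) without the 5 arrays of small spread, 61 (30.5% against 8.73%) after scaling to one spread, 8 (4.0% against 8.49%) on arrays numbered 1 and 2, and 2 (1.0% against 0.675%) with the random block. After adjustment limma called 0 members and 0.0189% of all features. Arrays of small spread were unevenly placed for this: 4 of the 5 were C57 chow and 1 was C3H high-fat, the groups in which profile 1 was higher. Members of a profile share their arrays, so these 50 are not separate observations.

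**Figure D5:**
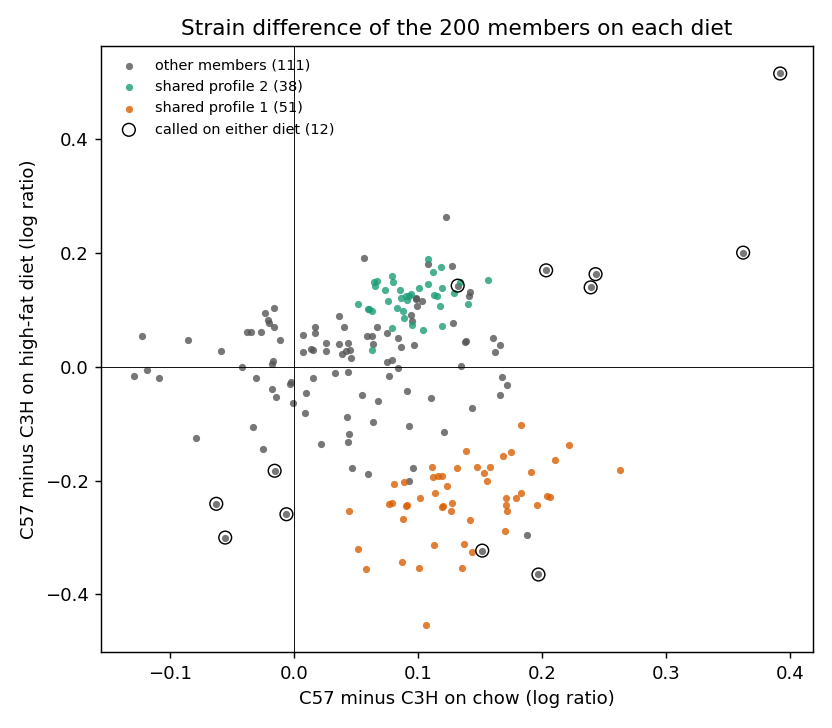
Each point is 1 of the 200 members, with C57 minus C3H on chow (x axis) and on high-fat diet (y axis), both as differences in log ratio from the limma fit; circles mark the 12 members called on either diet. Profile 1 lies as one group to the lower right, profile 2 as one group at small positive differences, and the called members lie among the 111 others, with feature 22199 at 0.392 and 0.515.

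Without the 5 arrays of small spread, the strain comparison on the high-fat diet called 31 members in place of 9, and 19 of them belonged to profile 2, all higher in C57, by 0.165 to 0.254. That is 15.5% of members, against 12.9% of all features in the same fit. Quantile normalization also called 31 members, 15.5% against 11.0% of all features, and 20 of them belonged to profile 2. Scaling to one spread called 12 members, 0 of them in profile 2. In the fit to all 54 centred arrays the median difference of profile 2 was 0.124 with 0 called. What brings the calls of profile 2 in some settings was not tested.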

How the data were processed

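The table holds 1 value per feature and array, deposited as log ratios of the 2 channels; log10 is the likely base of the deposited values, since they stop at exactly -2 and 2. Not given in the sources used here were dyes, scanner, background correction and normalization. Titles were followed where they give week 8 and the source field lists week 10. Exact zeros (7895 values, 0.682%) were treated as not measured. Array medians, taken over the 20694 features with no such value, were set to 0. A feature needed 2 or more measured values per group to be tested (21179 were, all 200 members among them), with limma 3.58.1 in R 4.3.3: group means of 54 arrays sharing 1 estimate of the spread, contrasts, eBayes, two-sided, called at an adjusted p under 0.05.

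Members, lists, comparisons and tests were chosen with earlier results of these data known. Named are the 5 lowest members, the 3 on either side of the threshold, up to 3 called members with the largest differences in each direction per comparison, the 2 most and 2 least variable members and the 2 closest pairs. Ratios give no signal over background; precision is limited by how many arrays there are. Alternatives were no centring, zeros kept, features measured on all arrays, one spread, quantile normalization, arrays numbered 1 and 2, arrays of the contrast, the number as a block, series as a random block, and each array left out.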

Additional observations from a re-analysis of the deposited data

How the results depend on the processing

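The 32 named differences and F tests were refitted under 64 alternatives, which gives 2048 values: 1905 kept direction and call, 143 kept direction without a call, and 0 reversed. Counts of members called moved as follows, and the cause was not tested. The share of all features called moved with the setting as well, so a higher count is not by itself a gain over all features. For strain on the high-fat diet that share was 10.3% with arrays scaled to one spread and 12.1% on arrays numbered 1 and 2. With arrays scaled to one spread limma called 3 on chow for strain, 2 for diet over both strains, and 0 for time on chow in C57, in C3H, on the high-fat diet and over the first 4 weeks. Quantile normalization called 31 for strain on the high-fat diet, 2 for diet in C3H (1 higher and 1 lower) and 4 for diet over both strains. It called 1 each for time on chow in C57 and in C3H, on the high-fat diet and over the first 4 weeks. Arrays numbered 1 and 2 gave 5 for strain on the high-fat diet, 1 for diet in C3H, 2 over both strains, 5 in single weeks of C3H, 2 for time in C57, 7 over both strains on each diet and by the F test, and 1 for diet by strain. Fitting only the arrays of the contrast, with fewer arrays behind the spread, gave 0 in single weeks of C3H, 0 for time on chow in either strain and on the high-fat diet, and 1 over the first 4 weeks. Without the 5 arrays of small spread, an alternative chosen after seeing the data, counts were 3 and 31 for strain on chow and on the high-fat diet, 5 for time on chow in C3H and 0 for time on the high-fat diet.

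The replicate number as a block gave 16 and 19 of the 200 members for strain on chow and on the high-fat diet. In that fit 16.4% and 25.7% of all features were called, against 6.96% and 11.0% without the block. The same block gave 1, 7 and 5 members for diet in C57, in C3H and over both, and 2 and 3 in single weeks of C57 and C3H. For time it gave 10 on chow in C3H, 11 over both strains and by the F test, 10 on the high-fat diet and 5 over the first 4 weeks. For diet by strain it gave 1. Of 459 pairs of same-numbered arrays in different groups 369 correlated over 0.1 in their deviations (-0.491 to 0.898, median 0.331), so the numbers do not pair all arrays, although 49 of 54 arrays correlated best with their own number. Same-numbered arrays of a strain and diet as a random block gave 0 for strain on both diets, for diet in C3H, over both strains and in single weeks of C3H, 10 for time on chow in C3H and over both strains, 13 on the high-fat diet, 5 over the first 4 weeks and 11 by the F test.

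With each array left out in turn, counts ran from 4 to 7 for strain on chow, 5 to 12 on the high-fat diet, 1 to 4 for diet in C3H, 1 to 2 over both strains, 0 to 1 in single weeks of either strain, 2 to 4 for time on chow in each strain, 4 to 5 over both strains and by the F test, 0 to 3 on the high-fat diet and 2 to 4 over the first 4 weeks; they stayed at 0 for strain at week 0, diet in C57 and both interactions. The 5 for strain came without array 3 of C57 high-fat week 8. Diet in C3H gave 1 without array 3 of C3H chow week 4, arrays 1 of weeks 8 and 24, array 3 of week 24, or high-fat array 3 of week 4 or array 2 of week 8. Time on the high-fat diet gave 0 without array 1 or 3 of C57 week 4, array 1 of C57 week 40, array 2 of C3H week 4, or array 1 or 2 of C3H week 40, and 1 without array 3 of C3H week 4. Time on chow in C57 gave 2 without array 2 of week 0 or array 2 or 3 of week 40. The call of feature 6324 at week 40 in C3H went without chow array 1 or high-fat array 1 or 2, and 1 member was called in a single week of C57 without array 2 of high-fat week 40. Diet over both strains gave 2 without any of 9 arrays.

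Chosen from values scaled to one spread, 189 of the 200 members were the same, from values as deposited 200, and from arrays of 1 number alone 174 to 182.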
